A study of Mus musculus with 8 samples.

Results

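The genes described here are the nuclear-encoded genes of the mitochondrial respiratory chain and ATP synthase, read across 4 groups of mouse embryonic stem cells. They were chosen by gene symbol alone: the Nduf genes of the a, b, c, s and v series, Sdha to Sdhd, all Uqcr genes, the Cox genes numbered from 4 to 8 with at most 1 letter and 1 further digit, a pattern that matched no Cox4 gene, and all Atp5 genes, without symbols of pseudogenes. This gave 81 members among 61535 loci, of which 50060 carried a gene name. Assigned to complexes by symbol alone, there were 37 genes of complex I, 4 of complex II, 8 of complex III, 15 of complex IV and 17 of complex V. Ndufa4, now placed in complex IV, is thus counted in complex I, and Atp5s and Atp5sl are counted in complex V. Of the 81 members, 79 reached a level of 1 FPKM in at least 1 group, and Cox8b and Cox8c did not. FPKM scales the fragments of a gene to transcript length and sequencing depth, so it allows levels to be set side by side between genes.

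Complexes I to IV pass electrons from NADH and succinate to oxygen, complexes I, III and IV pump protons out of the mitochondrial matrix, and complex V, the ATP synthase, uses the returning protons to make ATP. Most subunits are encoded in the nucleus, made in the cytosol and imported, while a small core is encoded by mitochondrial DNA. Mouse embryonic stem cells in the naive state use both oxidative phosphorylation and glycolysis, whereas primed pluripotent cells lean more on glycolysis.

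RNA was sequenced from 8 libraries, 2 in each group, of blastocyst-derived embryonic stem cells of the strain C57BL/6J. All groups carried the genotype Mll1fl/fl; Cre-ER TM, a floxed Mll1 gene (symbol Kmt2a, a histone H3 lysine methyltransferase) with a Cre recombinase that tamoxifen activates, so the controls carried both alleles too. The untreated group received no agent, the MM401 group received MM401, which blocks MLL1 activity, at 100 µM, the Mll1_deleted group received 4-hydroxytamoxifen at 5 µM, and the 2i group received PD03259010 at 1 µM and CHIR99021 at 3 µM, inhibitors of MEK and GSK3. Each treatment lasted 5 days. The first pair of treatments was in medium with serum and 2i was in medium with serum replacement, so inhibitors and medium are confounded in 2i and cannot be told apart. For untreated cells no medium is named in the labels, and none of the libraries is labelled as vehicle-treated or as 4-hydroxytamoxifen without a floxed gene. Cells grew on mouse embryonic fibroblast feeders, and RNA of feeders may be in every library. Whether the libraries came from 1 clone is not stated there either.

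The deposited tables held 1 value per group, in which the 2 libraries had been combined by the authors, so no spread between replicates, no n and no p-value can be given. Beside each level the authors gave a lower and an upper limit. Across the members these limits lay at a median of 21.1% to 22.5% of the level on either side, depending on the group. Total estimated counts ran from 76501619 in MM401 to 90728747 in 2i. The Kmt2a locus was at 15.5 FPKM in untreated, 14.6 in MM401, 11.8 in Mll1_deleted and 8.72 in 2i cells, and its limits overlapped between untreated (11.4 to 19.7) and Mll1_deleted cells (8.71 to 14.9). The labels do not say which exons the deletion removes, so this locus total is no check of the deletion. Loci of mitochondrial DNA, 31 in number, were listed at 0 in all groups, and the mitochondrially encoded subunits are not described.

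Comparisons are given as log2 of the ratio of FPKM + 1, which understates the change of low genes. A gene was compared if it had at least 1 FPKM in either group. Most counts of members stand beside the share of all named loci that met the same criterion. Because most members are highly expressed, the median over loci of at least 50 FPKM in either group is given as well.

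Markers of the cultured cells differed between the groups. The 8 embryonic stem cell markers summed to 2538 FPKM in untreated, 1335 in MM401, 3171 in Mll1_deleted and 2898 in 2i cells. Pou5f1, the most abundant of the 8, stood at 874, 294, 1008 and 1196 FPKM, while the median of the 8 was 282, 158.5, 332 and 267 FPKM. In MM401 4 of the 8 had limits below untreated cells, against 9.75% of all named loci. In 2i cells 5 of the 8 were higher and 3 lower than in untreated cells. Limits there lay above untreated cells for 1 marker and below for 1, against 5.93% and 4.98% of loci. The 25 fibroblast markers summed to 2567, 3210, 1913 and 5052 FPKM, and their median log2 ratios over untreated were 0.40, -0.45 and 0.75. In MM401 23 of 25 were higher, against 47.6% of loci. In Mll1_deleted cells 23 were lower, against 43.8%, and in 2i cells 23 were higher, against 56.8%. None of either list was at 0 in any group. In bulk samples, fewer cells of a type and less RNA per cell cannot be told apart. The part of these markers in the respiratory chain values was not tested.

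Respiratory chain genes were among the more abundant transcripts in these cells. In untreated cells their median level was 120 FPKM, against 13.3 FPKM for all named loci of at least 1 FPKM. A level of 50 FPKM was reached by 64 of the 81 members, against 18.7% of those loci. The most abundant was Atp5b, the catalytic beta subunit of ATP synthase, at 1883 FPKM in untreated, 1414 in MM401, 2163 in Mll1_deleted and 2989 in 2i cells. It was followed by Atp5a1, the alpha subunit, at 834, 664, 930 and 1029 FPKM in the same order. Sdha, the flavoprotein of succinate dehydrogenase, stood at 492, 464, 571 and 637 FPKM. Uqcrq, a small subunit of complex III, stood at 474, 360, 446 and 696 FPKM, and Cox6a1, a small subunit of complex IV, at 443, 406, 435 and 594 FPKM. All 5 were lowest in MM401 and highest in 2i cells. Together the members took 0.958% of all estimated counts in untreated, 0.863% in MM401, 0.957% in Mll1_deleted and 1.19% in 2i cells.

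**Figure D1:**
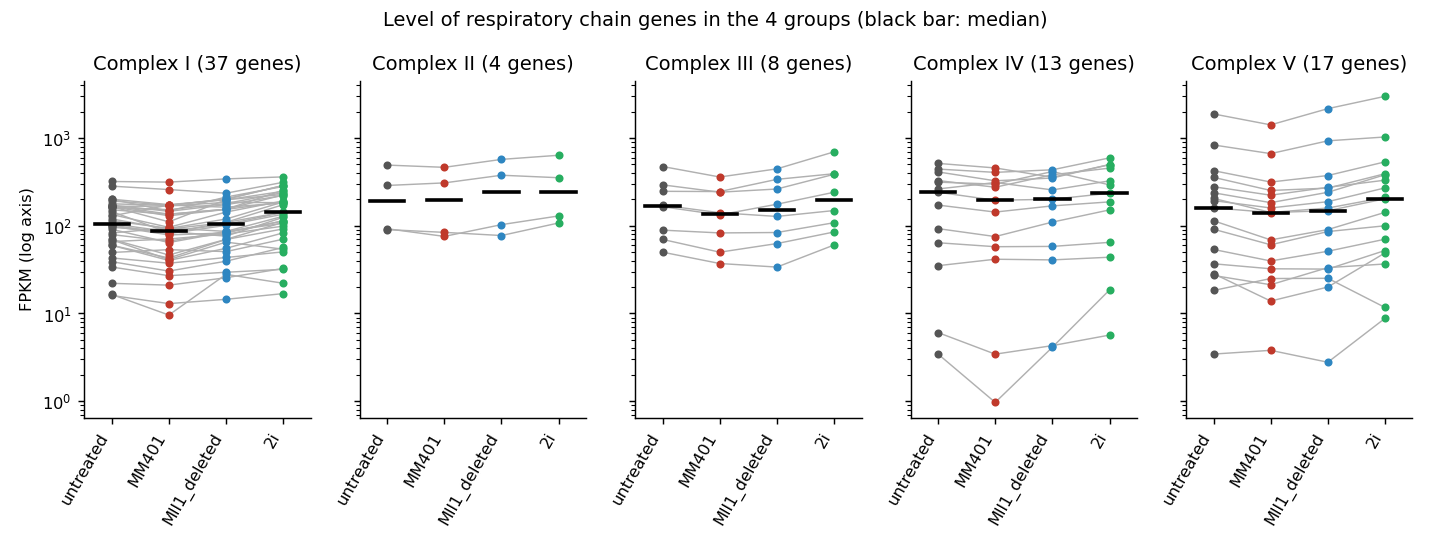
Level in FPKM (log axis) of the 79 members of at least 1 FPKM in a group, in 1 panel per complex. Each point is 1 gene in 1 group, grey lines join the same gene across groups, and black bars are medians. In complex I the median level was 105 FPKM in untreated, 86.2 in MM401, 104 in Mll1_deleted and 142 in 2i cells.

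The order of the groups was much the same from gene to gene. Of the 79 members, 61 were lowest in MM401 and 68 were highest in 2i cells. Among named loci these shares were 37.2% and 35.2%, and among loci of at least 50 FPKM 61.0% and 56.8%. Both held for 56 members, which is 70.9% of them, against 22.7% of 17439 named loci and 44.4% of the 3704 loci of at least 50 FPKM. No member was highest in MM401 cells, against 28.6% of named loci and 12.9% of loci of at least 50 FPKM. The 2 members lowest in 2i cells were Atp5s and Cox6b2, against 27.6% of named loci and 13.2% of loci of at least 50 FPKM. Of the 9 members lowest in Mll1_deleted cells, Uqcrb, Uqcrh, Cox7b and Ndufa1 encode small subunits of complexes III, IV and I. Among named loci 14.6% were lowest in that group, and among loci of at least 50 FPKM 10.4%. Neighbouring groups in this order were mostly within the authors' limits of each other, as given below.

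MM401 was given to ask what blocking MLL1 does to embryonic stem cells, and most respiratory chain genes were modestly lower after it. Of 79 members compared, 69 (87.3%) had a ratio below 0, against 52.4% of all named loci and 70.9% of loci of at least 50 FPKM. The median log2 ratio of MM401 over untreated was -0.29, against -0.04 for all loci. With levels divided by the total counts of each group the median of the members was -0.15, though these totals cannot be read as depth. The median over loci of at least 50 FPKM was also -0.29, close to that of the members. A 2-fold lower level was seen in 1 member, Cox6a2, and 6.08% of all loci passed that criterion. No member was 2-fold higher, against 7.03% of loci. The authors' limits lay wholly below those of untreated cells for 4 members, against 9.75% of loci, and above them for none, against 9.36% of loci. The share of members with separate limits was below that of all loci, while the share with a ratio below 0 was above it. At 50 FPKM or more, 4.62% of members and 15.9% of loci had limits below those of untreated cells.

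The 4 members whose limits lay below those of untreated cells were Atp5g1, Ndufa5, Atp5j2 and Ndufa9. Atp5g1 encodes subunit c, the rotor ring of ATP synthase, and lies at chr11:96068852-96075670 on the minus strand (mm10). It stood at 28.5 FPKM in untreated cells (limits 22.02 to 34.9), 13.9 in MM401 (9.88 to 17.9), 20.0 in Mll1_deleted (15.1 to 24.99) and 49.0 in 2i cells (38.7 to 59.4). Its ratio of MM401 to untreated was 0.487, or -0.99 on the log2 scale of FPKM + 1. Ndufa5, an accessory subunit of the arm of complex I that reduces ubiquinone, lies at chr6:24518666-24528013 on the minus strand. It stood at 145 FPKM in untreated, 83.2 in MM401, 110 in Mll1_deleted and 174 in 2i cells, with a log2 ratio of -0.80 for MM401. Atp5j2, subunit f of the membrane part of ATP synthase, lies at chr5:145183698-145192062 on the minus strand, and stood at 114, 69.0, 90.5 and 142 FPKM in the same order, with a log2 ratio of -0.72. Ndufa9, an accessory subunit next to the ubiquinone site of complex I, lies at chr6:126821721-126849136 on the minus strand. It stood at 70.0, 46.5, 70.0 and 109 FPKM, with a log2 ratio of -0.58. All 4 were lowest in MM401 and highest in 2i cells, and only for Atp5g1 and Ndufa9 did the limits of 2i also lie above those of untreated cells.

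**Figure D2:**
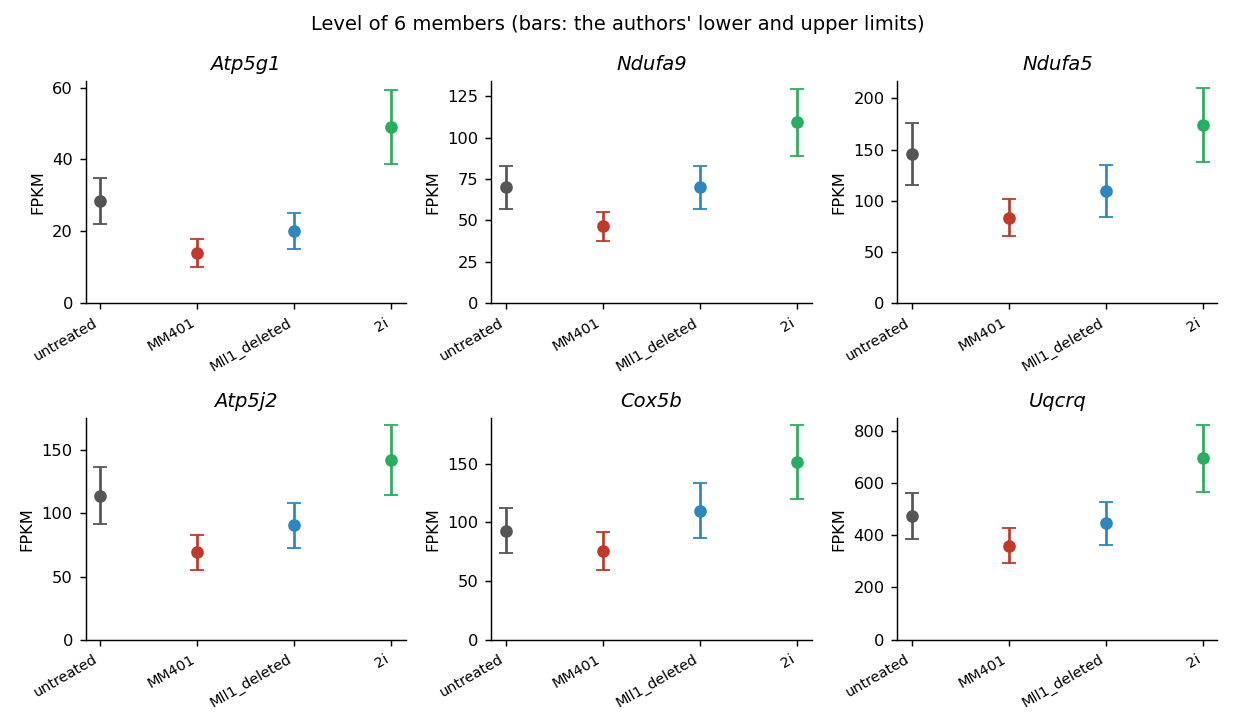
Level in FPKM of 6 members in the 4 groups, each panel starting at 0; points are the deposited group values and bars the authors' lower and upper limits. In Atp5g1 the MM401 limits (9.88 to 17.9 FPKM) lie below, and the 2i limits (38.7 to 59.4 FPKM) above, those of untreated cells (22.02 to 34.9 FPKM).

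Nuclear respiratory factor 1 (NRF1), ETS family factors such as GABPA, and YY1 are known to bind promoters of many respiratory chain genes. RefSeq promoters (GRCm38.p6, 250 bases before to 50 after the start of a transcript) were available for 68 of the 81 members, 65 by symbol and 3 by synonym. Those of the 4 members above are shown because they alone had MM401 limits below those of untreated cells; capitals mark matches to the letters GCGCANGCG (NRF1), CCGGAAG (ETS) or AAGATGGCG (YY1) on either strand. The windows, all on the minus strand, are chr11:96075582-96075881, chr6:24527641-24527940 (the more upstream of the 2 starts listed for Ndufa5), chr5:145191492-145191791 and chr6:126849095-126849394.
Atp5g1: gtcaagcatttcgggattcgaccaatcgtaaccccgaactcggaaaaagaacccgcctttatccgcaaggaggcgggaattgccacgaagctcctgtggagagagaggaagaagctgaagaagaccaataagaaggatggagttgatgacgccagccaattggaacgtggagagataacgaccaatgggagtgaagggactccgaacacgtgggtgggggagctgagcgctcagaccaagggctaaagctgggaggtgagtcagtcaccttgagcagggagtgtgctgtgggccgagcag
Ndufa5: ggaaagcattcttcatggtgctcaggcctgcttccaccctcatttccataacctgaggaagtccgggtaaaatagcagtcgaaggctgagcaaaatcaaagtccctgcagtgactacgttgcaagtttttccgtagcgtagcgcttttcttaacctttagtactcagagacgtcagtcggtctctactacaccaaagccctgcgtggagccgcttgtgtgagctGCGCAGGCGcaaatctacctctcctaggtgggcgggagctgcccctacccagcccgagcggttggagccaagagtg
Atp5j2: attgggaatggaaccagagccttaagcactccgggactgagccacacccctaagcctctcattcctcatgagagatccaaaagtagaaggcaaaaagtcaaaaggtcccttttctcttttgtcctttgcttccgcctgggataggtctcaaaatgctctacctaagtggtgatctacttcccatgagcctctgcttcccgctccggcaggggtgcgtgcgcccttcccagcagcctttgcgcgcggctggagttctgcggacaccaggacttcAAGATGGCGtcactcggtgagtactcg
Ndufa9: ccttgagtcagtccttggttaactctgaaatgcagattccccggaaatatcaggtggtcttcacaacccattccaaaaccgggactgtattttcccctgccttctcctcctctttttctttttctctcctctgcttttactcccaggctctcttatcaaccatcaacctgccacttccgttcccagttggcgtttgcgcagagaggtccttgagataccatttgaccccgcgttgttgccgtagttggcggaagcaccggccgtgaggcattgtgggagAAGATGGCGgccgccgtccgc
The Ndufa5 window holds an NRF1 match that begins 26 bases before the start site. The Atp5j2 and Ndufa9 windows each hold a YY1 match, which begins 23 and 29 bases after the start site. The Atp5g1 window holds none of the 3 motifs.

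Over all 68 promoters, NRF1 letters were found in 20 members (29.4%), against 7.03% of 27025 genes and 18.8% of 2904 genes of at least 50 FPKM. ETS letters were found in 16 members (23.5%), against 9.93% of all genes and 25.5% of the abundant genes. YY1 letters were found in 8 members (11.8%), against 1.64% and 4.89%. Matches of different motifs did not overlap in the windows shown, while an NRF1 match can be read on both strands 1 base apart and was counted once per gene. The MM401 ratio had a median of -0.18 in members with and -0.29 in members without NRF1 letters. It was -0.42 in the 8 members with YY1 letters and -0.28 in the 60 without, and -0.29 and -0.28 with and without ETS letters. For 2i the medians with and without were 0.36 and 0.40 for NRF1, 0.34 and 0.37 for ETS, and 0.37 and 0.37 for YY1 letters. These are descriptions of letters in a window and of group values, with no test.

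Within complex I the MM401 medians were -0.33 in 8 genes of the NADH-binding arm and -0.41 in 8 of the ubiquinone-reducing arm. Loci of at least 50 FPKM had a median of -0.29, and whether the arms differ was not tested. The 7 catalytic core genes, drawn from these 2 arms, together hold the flavin, the iron-sulfur clusters and much of the ubiquinone site. All 7 were below untreated cells, with a median log2 ratio of -0.47, and the limits of all 7 overlapped those of untreated cells. Ratios below 0 were seen in 52.4% of all loci and 70.9% of loci of at least 50 FPKM. Ndufs1, the largest subunit, stood at 69.3 FPKM in untreated, 41.2 in MM401, 65.1 in Mll1_deleted and 54.1 in 2i cells, but its limits in untreated cells were wide, 23.9 to 115 FPKM. Ndufv1, which binds NADH, stood at 165, 111, 198 and 227 FPKM. Ndufs8 stood at 59.95, 42.9, 69.8 and 92.1 FPKM. The core genes Ndufs3, Ndufs7 and Ndufv2 had MM401 log2 ratios of -0.35, -0.25 and -0.17. The 19 genes of the membrane arm had a median of -0.23, with 16 below 0. Members at the upper end were Ndufb6 of the membrane arm, at 130 FPKM in untreated and 172 in MM401 cells (0.41), and Ndufa12 of the NADH-binding arm, at 82.9 and 94.3 FPKM (0.18), both with overlapping limits.

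In complex II, Sdha, Sdhb, Sdhc and Sdhd had MM401 log2 ratios of -0.08, -0.29, 0.10 and -0.10. Sdhb, the iron-sulfur subunit, was lowest of these relative to untreated cells, at 75.7 against 92.5 FPKM. In complex III all 8 genes were below 0, from -0.01 in Uqcrc1, a core protein, to -0.48 in Uqcrfs1, the Rieske iron-sulfur protein, which stood at 69.9 FPKM in untreated and 49.99 in MM401 cells. In complex IV, 11 of 13 genes compared were below 0 and the median was -0.25. Beside these counts, 52.4% of all loci and 70.9% of loci of at least 50 FPKM were below 0, the latter with a median of -0.29. Cox8a, at 263 FPKM in untreated and 311 in MM401 cells, and Cox7a1, at 35.1 and 41.5 FPKM, were above (0.24 each). In complex V, 15 of 17 were below 0, with a median of -0.37, and Atp5s (0.43) and Atp5g2 (0.11) were above. Its 5 F1 genes, which form the catalytic head, ran from -0.41 (Atp5b) to -0.18 (Atp5c1), and its 10 stalk and membrane genes had a median of -0.46.

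**Figure D3:**
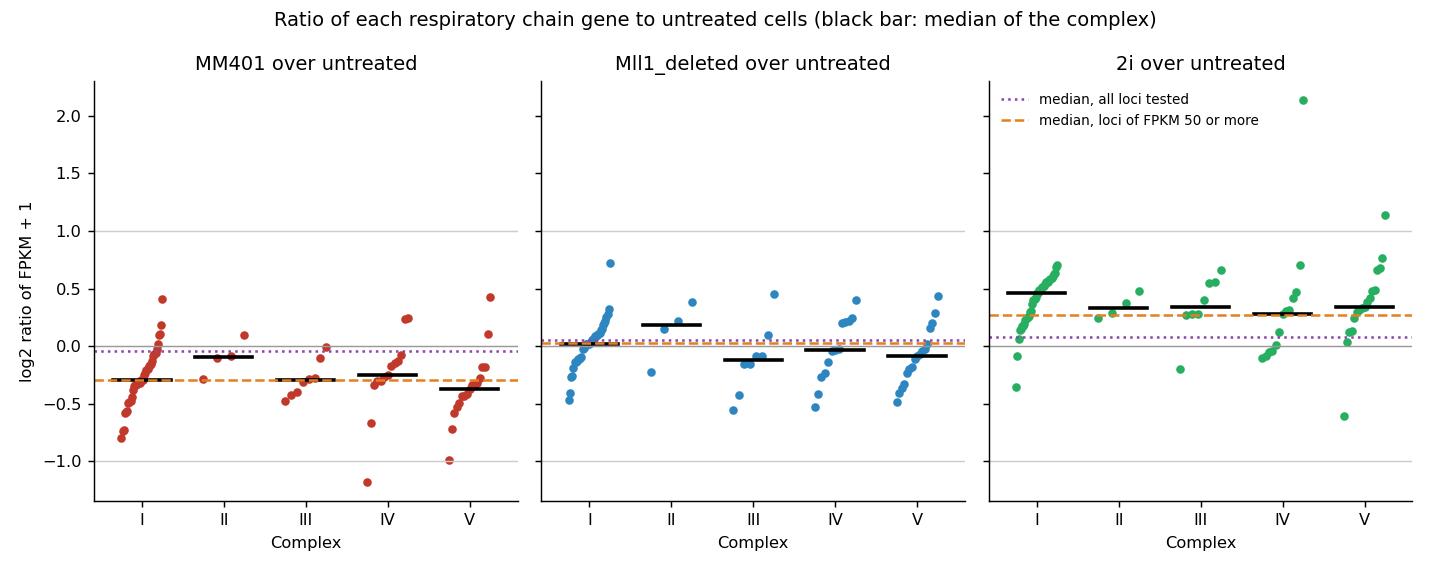
Log2 ratio of FPKM + 1 of each member over untreated cells, by complex, in MM401, Mll1_deleted and 2i cells; each point is 1 gene, black bars are complex medians, and dotted and dashed lines are the medians of all loci compared and of loci of at least 50 FPKM. In MM401 the member median of -0.29 lies on the dashed line; in 2i the member median of 0.37 lies above the dashed line at 0.27.

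After deletion of Mll1 the members were split between higher and lower. The median log2 ratio of Mll1_deleted over untreated was -0.02, against 0.05 for all loci and 0.03 for loci of at least 50 FPKM, and 42 of 79 members were below 0, against 43.8% of loci. No member was 2-fold higher or lower, against 3.02% and 3.66% of loci. No member had limits wholly above or below those of untreated cells, against 4.53% and 4.02% of loci. With 1 value per group this count of 0 has no test behind it. The lowest ratios were in Uqcrb, a small subunit of complex III (50.01 FPKM in untreated, 33.8 in Mll1_deleted cells, -0.55), Cox7b of complex IV (514 and 357 FPKM, -0.52), Atp5g1 (-0.49), Ndufa1 of the complex I membrane arm (105 and 76.2 FPKM, -0.46), Uqcrh, the hinge protein (172 and 128 FPKM, -0.42), and Cox7b2 (-0.41). Ndufa4l2 was listed highest (0.72), but its limits reached 0 in both groups and its ratio in estimated counts was 0.20. The next highest were in Uqcrc1 (247 and 338 FPKM, 0.45), Atp5s (0.44), Cox6b2 (314 and 415 FPKM, 0.40), Sdhc, a membrane anchor of complex II (288 and 377 FPKM, 0.39), and Ndufb6 (0.33).

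The 7 core genes of complex I had a median of 0.09 after deletion, with only Ndufs1 below 0 (-0.09), where the median after MM401 was -0.47. After deletion 43.8% of all loci and 46.3% of loci of at least 50 FPKM were below 0. Set directly against each other, MM401 cells were below Mll1_deleted cells in 66 of 79 members (83.5%). This held for 57.1% of all loci and 75.2% of loci of at least 50 FPKM. The median log2 ratio was -0.25, against -0.09 for all loci and -0.30 for loci of at least 50 FPKM. The limits of MM401 lay below those of Mll1_deleted cells in 3 members, Ndufv1, Ndufs8 and Ndufa9 of complex I, against 8.5% of loci. Cox6a2 and Ndufa4l2 were 2-fold lower in MM401, 2 members against 5.03% of loci, but the limits of Ndufa4l2 reached 0 in both groups and its log2 ratio was -1.45 in FPKM and -0.81 in counts. Divided by the total counts of each group, which is no depth correction, the median became -0.041.

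The 2i condition holds embryonic stem cells in a naive ground state, and respiratory chain genes were higher there than in untreated cells. Of 79 members only 8 (10.1%) had a ratio below 0, against 43.2% of loci and 26.1% of loci of at least 50 FPKM. The median log2 ratio was 0.37, against 0.08 for all loci and 0.27 for loci of at least 50 FPKM. The limits of 2i lay above those of untreated cells in 11 members (13.9%). This held for 5.93% of all loci and 8.63% of loci of at least 50 FPKM. No member had 2i limits below those of untreated cells, against 4.98% of loci. By complex the medians were 0.46 in complex I, 0.33 in complex II, 0.34 in complex III, 0.28 in complex IV and 0.34 in complex V. No member was 2-fold lower, against 4.16% of loci, and 2 were 2-fold higher, Cox6a2 and Atp5g2, against 2.92%. The ratio of Atp5g2 was 1.14 in FPKM but -0.52 in estimated counts, so that in counts Cox6a2 alone passed.

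Of the 11 members with limits above those of untreated cells, 7 belong to complex I, which holds 37 of the 79 members compared. These are 18.9% of the complex I genes, against 13.9% of all members, and whether the complexes differ was not tested. Ndufb10 of the membrane arm stood at 114 FPKM in untreated, 93.3 in MM401, 119 in Mll1_deleted and 187 in 2i cells, a log2 ratio of 0.70 for 2i. Ndufb9 of the same arm stood at 178, 171, 202 and 288 FPKM (0.69), and Ndufb7 at 96.2, 86.2, 104 and 142 FPKM (0.56). The other 4 were Ndufa9 (0.64), Ndufa12 (0.63), the core gene Ndufs8 (0.61) and Ndufa8 (0.58). In complex III this held for Uqcrq (0.55), in complex IV for Cox5b, which binds zinc, at 92.8, 75.3, 110 and 152 FPKM (0.70), and for Cox6a2, and in complex V for Atp5g1 (0.76). At the other end, Atp5s stood at 18.3 FPKM in untreated and 11.7 in 2i cells (-0.60), Ndufs1 at 69.3 and 54.1 (-0.35), Uqcrh at 172 and 149 (-0.20), Cox6b2 at 314 and 293 (-0.10), and Ndufb3 and Cox7b2 at -0.08 each, all with overlapping limits. Atp5s encodes a coupling factor rather than a fixed subunit of the enzyme.

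The widest gap lay between MM401 and 2i cells. There 77 of 79 members (97.5%) were lower in MM401, against 53.5% of loci and 77.6% of loci of at least 50 FPKM. The median log2 ratio was -0.64, against -0.08 for all loci and -0.55 for loci of at least 50 FPKM. The limits of MM401 lay below those of 2i in 34 members, which is 43.0% of them, against 16.3% of all loci and 31.8% of loci of at least 50 FPKM. A 2-fold lower level was seen in 13 members, against 11.1% of loci, among them Atp5b, Atp5o, Atp5j2, Ndufa5, Ndufa9, Ndufs8 and Ndufv1. Among loci of at least 50 FPKM 747 of 3475 were 2-fold lower, and among members of that level 9 of 68. Atp5s went the other way, at 25.03 FPKM in MM401 and 11.7 in 2i cells, and was the only member 2-fold higher in MM401. Most of these ratios were close to the 2-fold bound. Centred on the median of loci expressed in both groups, a shift of -0.13, the 14 members past 2-fold in either direction became 4, which were Atp5g1, Ndufa9, Cox6a2 and Atp5s. Atp5g2, among the 13, had a log2 ratio of -1.03 in FPKM and 0.64 in counts. Mll1_deleted cells also lay below 2i in 73 members (92.4%), against 51.6% of loci and 70.0% of loci of at least 50 FPKM. The median was -0.41, against -0.02 for all loci and -0.23 for loci of at least 50 FPKM. The limits of Mll1_deleted cells were below those of 2i in 10 members (12.7%). This held for 8.18% of all loci and 10.3% of loci of at least 50 FPKM. A 2-fold lower level was seen in 3 members, Atp5g1, Atp5g2 and Cox6a2, against 5.18% of loci. The log2 ratio of Atp5g2 was -1.38 in FPKM but 0.35 in counts. These comparisons share the 2i group with each other and with the comparison of 2i to untreated cells, so they are not separate evidence.

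Several positions in the chain can be filled by alternative genes, and these differed widely in level. Subunit c is encoded by Atp5g1, Atp5g2 and Atp5g3, which yield the same mature protein from different precursors. Atp5g3 was by far the most abundant, at 425 FPKM in untreated, 315 in MM401, 374 in Mll1_deleted and 535 in 2i cells, against 28.5, 13.9, 20.0 and 49.0 FPKM for Atp5g1. Atp5g2 was listed at 3.45, 3.80, 2.78 and 8.81 FPKM, but its locus also held the microRNA gene Mir688. Its estimated count was 171 in untreated and 116 in 2i cells, so its log2 ratio for 2i was 1.14 in FPKM and -0.52 in counts, and the direction is not settled. Atp5g1 had the lowest MM401 ratio among members with at least 5 FPKM in untreated cells (-0.99), where Atp5g3 stood at -0.43.

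Cox6a2, the heart and skeletal muscle form of subunit VIa, lies at chr7:128205435-128206387 on the minus strand and had the widest range of all members. It stood at 3.45 FPKM in untreated (limits 1.22 to 5.67), 0.969 in MM401 (0 to 2.49), 4.13 in Mll1_deleted (1.53 to 6.73) and 18.6 in 2i cells (11.9 to 25.2). Its log2 ratios were -1.18 for MM401, with overlapping limits, and 2.14 for 2i, with separate limits. The estimated counts behind these values were 86.1, 25.5, 122 and 494. Its general counterpart Cox6a1 was far above it in every group, at 406 to 594 FPKM. Cox6b2, known as a testis form of subunit VIb, was abundant here, at 314, 299, 415 and 293 FPKM, beside 411, 326, 350 and 499 FPKM for Cox6b1. Only in Mll1_deleted cells was Cox6b2 above Cox6b1, and the limits of both overlapped there.

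The muscle form Cox7a1 stood at 35.1, 41.5, 40.8 and 43.8 FPKM, beside 241, 195, 201 and 235 FPKM for Cox7a2. Cox7b2, a testis form, stayed between 3.44 and 6.06 FPKM, beside 357 to 514 FPKM for Cox7b. Ndufa4l2, a hypoxia-induced relative of Ndufa4, stood at 16.5, 9.60, 27.9 and 22.1 FPKM, and its limits reached 0 in all groups, so no order of these levels can be read. Ndufa4 itself, which is now placed in complex IV, stood at 283, 259, 235 and 313 FPKM. The muscle form Cox8b and the testis form Cox8c stayed below 1 FPKM in all groups, at up to 0.214 and 0.849 FPKM, while Cox8a stood at 263, 311, 256 and 325 FPKM. Near-identical copies limit some of these levels. The pseudogene loci Atp5k-ps2 and Uqcrh-ps1 were listed at 104 and 48.2 FPKM in untreated cells, beside 91.4 FPKM for Atp5k and 172 FPKM for Uqcrh, so fragments of Atp5k and Uqcrh may be split between loci and their levels are uncertain.

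**Figure D4:**
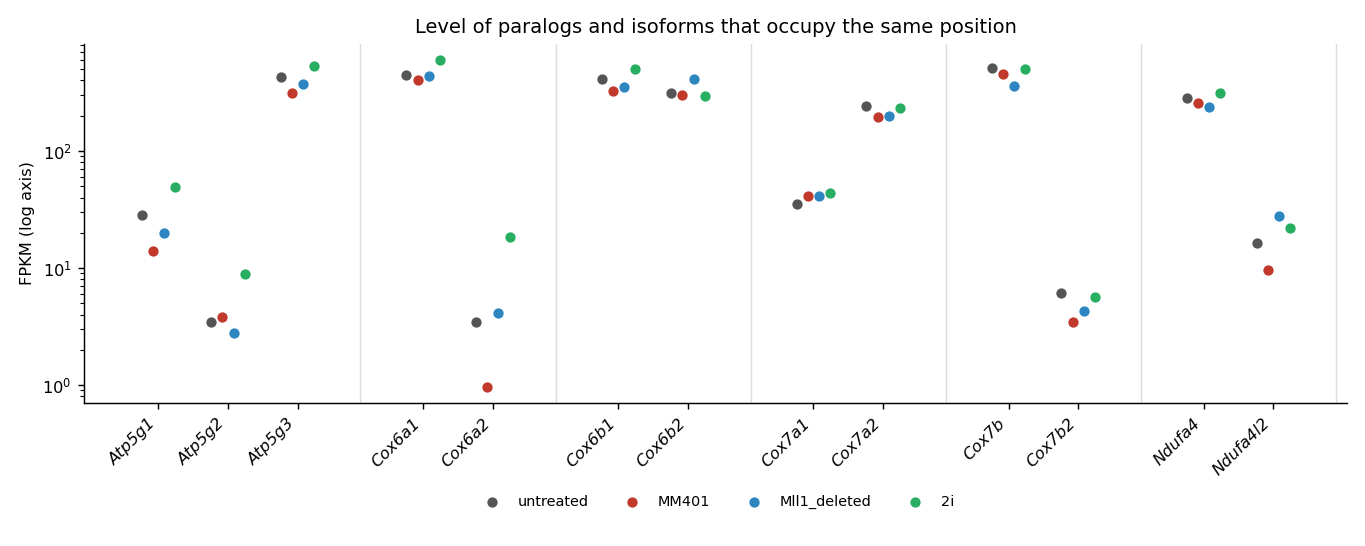
Level in FPKM (log axis) of genes that can fill the same position of a complex, in the 4 groups; each point is 1 deposited group value. Atp5g3 (315 to 535 FPKM) lies above Atp5g1 and Atp5g2 in every group, and Cox6a2 lies between 0.969 FPKM in MM401 and 18.6 FPKM in 2i cells.

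Subunits that the symbol rule leaves out were looked at from a separate list. Cyc1, the cytochrome of complex III, stood at 175 FPKM in untreated, 129 in MM401, 197 in Mll1_deleted and 269 in 2i cells, with log2 ratios of -0.44, 0.17 and 0.62, and the 2i limits lay above those of untreated cells. Usmg5, a small subunit of ATP synthase, stood at 48.1, 28.9, 31.0 and 56.2 FPKM. Atpif1, the inhibitor of ATP synthase, stood at 314, 224, 235 and 301 FPKM, and Ndufab1, an acyl carrier protein of complex I, at 18.4, 23.6, 17.9 and 22.3 FPKM. Cycs was listed below 1 FPKM in all groups; its level is uncertain. Cox4i2, also a tissue form, was below 1 FPKM in untreated and 2i cells. After deletion it had the highest log2 ratio of this list (0.81), with limits above those of untreated cells. Its MM401 log2 ratio was 0.53, with overlapping limits.

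Most other lists of mitochondrial genes lay below untreated cells in MM401 and above them in 2i, and lay on both sides after deletion. Beside them, loci of at least 50 FPKM had median log2 ratios of -0.29 in MM401, 0.03 in Mll1_deleted and 0.27 in 2i cells. The 78 genes of the mitochondrial ribosome had median log2 ratios of -0.40 in MM401, -0.05 in Mll1_deleted and 0.34 in 2i cells over untreated. In MM401 72 of the 78 (92.3%) were below 0, against 52.4% of all loci and 70.9% of loci of at least 50 FPKM. Limits below untreated cells were seen in 9 (11.5%), against 9.75% and 15.9% of these loci. Mrpl11 and Mrpl58 were lowest at -0.89, and Mrps10, in a joint locus with Guca1b, was highest at 0.44. The 25 import genes had medians of -0.34, -0.11 and 0.24, and Tomm40, the pore of the outer membrane, stood at 106 FPKM in untreated and 51.2 in MM401 cells (-1.04), while Tomm20l was highest (0.53). The 14 assembly factors of complex I had medians of -0.24, 0.09 and 0.29, from -0.71 (Ecsit) to 0.24 (Ndufaf7) in MM401. The 21 of complex IV had medians of -0.21, 0.08 and 0.29, from -0.55 (Lrpprc) to 0.51 (Cox18) in MM401. The shorter lists of assembly factors did not lie below untreated cells in MM401, with medians of 0.05 for 4 factors of complex II, 0.00 for 6 of complex III and 0.14 for 3 of complex V. The 16 genes of the citrate cycle and pyruvate dehydrogenase had medians of -0.09, 0.16 and 0.22, from -0.49 (Pdhb) to 0.20 (Dlat) in MM401. None of the 16 had limits separate from untreated cells in any of the 3 comparisons. Among all loci the shares with limits below and above were 9.75% and 9.36% in MM401, 4.02% and 4.53% in Mll1_deleted, and 4.98% and 5.93% in 2i cells.

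Among 16 regulators of mitochondrial genes compared in MM401, the median was -0.14, with Pprc1, a PGC-1-related coactivator in a joint locus with Nolc1, lowest (155 FPKM in untreated, 84.2 in MM401 cells, -0.87) and Ppargc1b highest (0.30). Ppargc1a, the coactivator PGC-1 alpha, was listed at 0.09 FPKM or less in all groups. Nrf1 stood at 50.8, 33.1, 46.7 and 60.6 FPKM, Gabpa at 56.3, 52.0, 66.7 and 46.0 FPKM, and Yy1 at 71.9, 63.7, 69.6 and 66.5 FPKM. Esrrb, a nuclear receptor of the naive state that is also an embryonic stem cell marker, stood at 210, 184, 323 and 369 FPKM, and its limits in Mll1_deleted and 2i cells lay above those of untreated cells.

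The glycolysis list lay further below untreated cells than the respiratory chain in MM401 and close to untreated cells in 2i. Their median log2 ratios were -1.04 in MM401, -0.05 in Mll1_deleted and 0.05 in 2i cells. In MM401, 8 of 15 were 2-fold lower and 10 had limits below untreated cells, against 6.08% and 9.75% of all loci. Ldha, lactate dehydrogenase, stood at 264 FPKM in untreated and 76.0 in MM401 cells (-1.78), and Pkm, pyruvate kinase, in a joint locus with AC160637.1, at 663 and 269 FPKM (-1.30). Hk1, a hexokinase, was highest, at 25.5 and 58.5 FPKM (1.17). The sum of FPKM over the list was 3536 in untreated and 1801 in MM401 cells, where the sum over the respiratory chain members was 14727 and 12318.

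**Figure D5:**
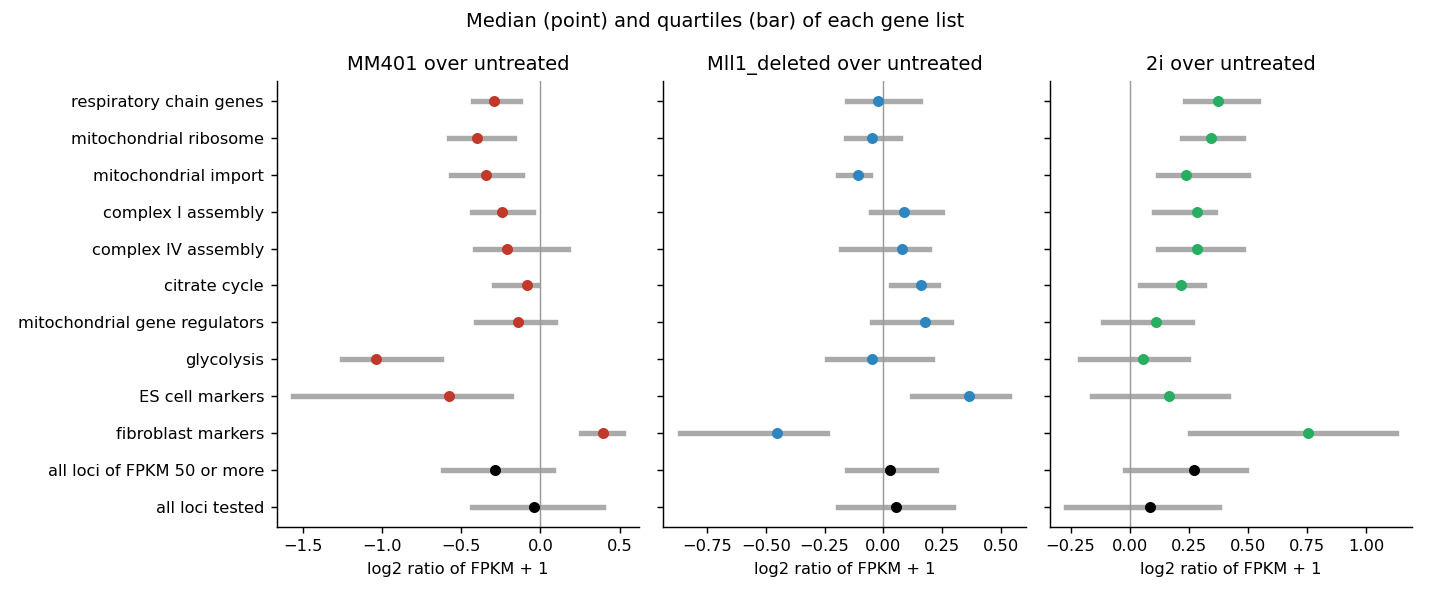
Median (point) and quartiles (bar) of the log2 ratio of FPKM + 1 over untreated cells for 10 gene lists, the respiratory chain genes first, and for all loci compared and those of at least 50 FPKM, in MM401, Mll1_deleted and 2i cells; horizontal scales differ between panels. In MM401 the glycolysis median of -1.04 lies farthest left, and in 2i the fibroblast marker median of 0.75 lies farthest right.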

How the data were processed

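Gene levels came from tables of 8 libraries in 4 groups with 1 column per group, the 2 libraries combined by the authors; no test or replicate error is therefore possible. The deposited FPKM of a group has a lower and an upper limit beside it, per the file headers, and the deposited estimated counts, which need not be whole, stand beside a variance. TopHat2 2.1.1, SAMtools 1.5, deepTools and the build mm10 appear in the submitters' processing notes without their roles, and no source read states strand use.

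Loci without a name (11475, holding 0.324% to 0.405% of counts) and loci with status HIDATA in a group (108) were left out, and limits were compared only at status OK, since at some other loci the FPKM lay outside its own limits. All members had status OK. Of the members, 5 lay in loci joined with another gene: Atp5g2, Atp5o, Ndufa13, Ndufb2 and Ndufb8. For Ndufa13, which had several loci, the locus of the highest mean was used. A log2 ratio used a pseudocount of 1; 2-fold means a size of at least 1. Counts used a pseudocount of 10. Gene positions are from GENCODE M21. Python 3.11.15 and pandas 2.3.3 were used. The code of the ratio rule was checked with fold changes planted in the untreated values, and that of the limit rule with made-up limits. These checks do not bear on how reliable a call is.

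Members and lists were chosen with earlier results of these data known. Named members are the 6 highest and 6 lowest ratios per comparison with untreated cells, those past 2-fold, the 5 most abundant, the core genes, subunit c genes and tissue forms; of other lists, the extremes. Any further gene was picked with its values in view. One member is not reported by name here.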

Additional observations from a re-analysis of the deposited data

How the results depend on the processing

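With 1 value per group, the 18 results (members past 2-fold, members with separate limits, and the median log2 ratio, in 6 comparisons) were recomputed under 150 alternatives, and 130 stayed close to the reported value. A median counted as close if it shifted by less than 0.155 to 0.162, depending on the comparison. This bound came from the width of the authors' limits and is wide beside medians such as -0.29 or -0.02. Medians moved past it in 2 cases, both with FPKM divided by the group's total counts, an alternative chosen after seeing the data. They went to -0.041 for MM401 against Mll1_deleted and to -0.40 for MM401 against 2i. For MM401 against untreated that scaling gave -0.15 in place of -0.29, which counted as close. So did a change from -0.25 to -0.13 for MM401 against Mll1_deleted, centred on the median of loci expressed in both groups. Counts of members past 2-fold are small and moved more. For MM401 against untreated the count of 1 became 2 with a pseudocount of 0.1, and 0 at a minimum of 5 or 50 FPKM (the latter also chosen after seeing the data) or without Atp5s, Atp5sl and the tissue forms together (a trimmed list). For 2i against untreated the count of 2 became 1 in estimated counts, without joint loci or in the trimmed list, and 0 at 50 FPKM. For MM401 against Mll1_deleted the count of 2 became 1 in counts or at 5 FPKM, and 0 in the trimmed list or at 50 FPKM. For MM401 against 2i the count of 14 became 4 when centred on the median of loci expressed in both groups, a shift of -0.13, and 9 at 50 FPKM. For Mll1_deleted against 2i the count of 4 became 2 in counts or in the trimmed list, and 0 at 50 FPKM. Members with separate limits moved once, from 3 to 7 for MM401 against Mll1_deleted with the count plus or minus 2 SD, also chosen after seeing the data. The cause was not tested. Among named members past 2-fold, only Atp5g2 turned direction, in estimated counts. No paired analysis was possible because the columns hold no replicates, and no replicate could be left out. Sequencing depth is not known. Total estimated counts were 84503307 in untreated and 76501619 in MM401 cells. Yet the member median of MM401 over untreated was -0.285 in counts and -0.292 in FPKM. The totals therefore cannot be read as depth, and dividing by them is no depth correction. Levels under 1 FPKM are not ordered.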
